A study of Mus musculus with 9 samples.

Results

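Glypicans and syndecans are the core proteins that hold heparan sulfate at the cell surface. The genes described here are the glypicans Gpc1, Gpc2, Gpc3, Gpc4, and Gpc6 and the syndecans Sdc1, Sdc2, Sdc3, and Sdc4, chosen by their symbols. These are 9 of the 43346 genes in the count table, and all 9 were among the 16877 genes tested. They were measured by RNA-Seq in lung fibroblasts of aged Col1a1-GFP mice (72 weeks in the sample labels, 18 months in the treatment notes). The mice carry a GFP transgene under the collagen I promoter on an FVB background and were male. The 4 aged sham mice had received saline and the 5 aged bleo mice bleomycin into the trachea, and lungs were taken 30 days later. Cells were sorted as GFP positive and negative for CD45, CD31, and EpCAM, a gate for cells in which the collagen reporter was on. Transcripts typical of other cell types were also present and are given below.

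Heparan sulfate is a long sugar chain with sulfated stretches that bind growth factors, morphogens, and matrix proteins. Glypicans are tied to the membrane by a glycosylphosphatidylinositol (GPI) anchor and are known for tuning Wnt, hedgehog, FGF, and BMP signals. Syndecans cross the membrane, act with integrins in cell adhesion, and can be released when proteases cut the part outside the cell. In the lung, syndecans are also made by epithelial and immune cells, and glypican 3 is known as a gene of the mesenchyme and of organ growth.

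The glypican and syndecan genes did not change as a block. With bleomycin, Gpc1, Sdc1, and Sdc3 rose, Gpc3 and Gpc6 fell, and the other 4 genes did not pass the thresholds of an FDR (adjusted p-value) under 0.10 and a fold change over 1.5. These 5 of 9 genes compare with 23.8% of all genes tested that were called, 12.3% higher and 11.5% lower. DESeq2 called 24.6% and limma-trend 23.9% of the genes they tested. In 7 of the 9 genes the libraries of both groups did not overlap, 4 higher and 3 lower in aged bleo, as in 32.2% of all genes tested (16.1% in each direction). The median log2 fold change was 0.22 over the 9 genes and 0.01 over all genes tested.

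**Figure D1:**
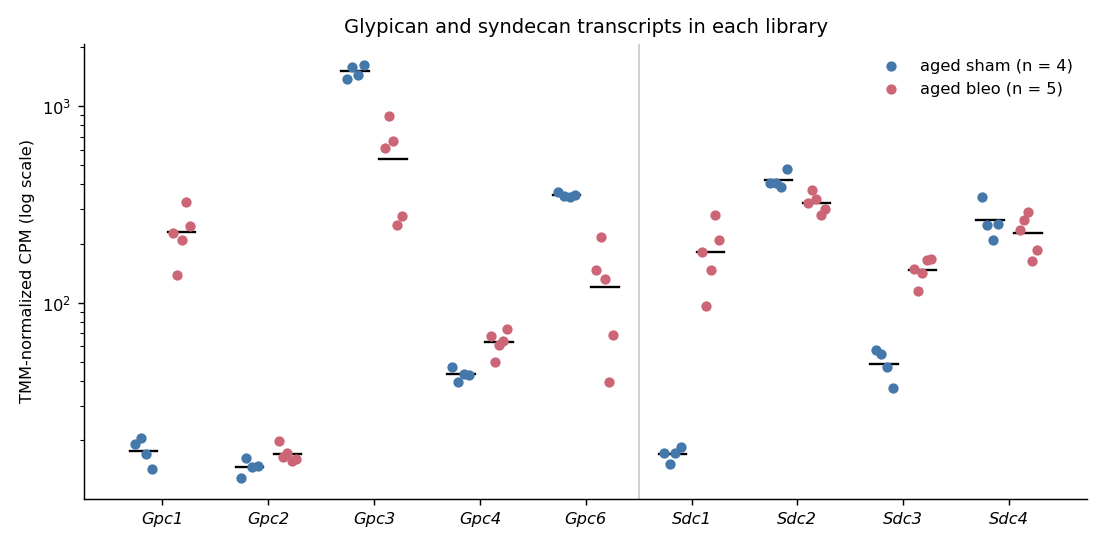
Level of each gene in each library as TMM-normalized CPM (read counts scaled to library size, log axis), with 4 aged sham points in blue, 5 aged bleo points in red, and a black bar at each group mean. The red points of Gpc1, Sdc1, and Sdc3 all lie above the blue ones and those of Gpc3 and Gpc6 all below them, while the points of Gpc2 and Sdc4 overlap.

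Promoters of 2 genes that rose, both syndecans, and of 1 glypican gene that fell are shown, so that their sequences can be read beside the directions. RefSeq promoter sequences of GRCm38.p6, from 250 bases before to 50 bases after the start, were matched by symbol for 6 of the 9 genes. No entry was matched for Gpc1, Gpc6, and Sdc2. The sequences of the called genes Sdc1 (chr12:8771146-8771445, plus strand), Sdc3 (chr4:130792287-130792586, plus strand), and Gpc3 (chrX:52613925-52614224, minus strand) are given in gene orientation, with capitals on each GC box (GGGCGG, or CCGCCC where it lies on the other strand).
Sdc1: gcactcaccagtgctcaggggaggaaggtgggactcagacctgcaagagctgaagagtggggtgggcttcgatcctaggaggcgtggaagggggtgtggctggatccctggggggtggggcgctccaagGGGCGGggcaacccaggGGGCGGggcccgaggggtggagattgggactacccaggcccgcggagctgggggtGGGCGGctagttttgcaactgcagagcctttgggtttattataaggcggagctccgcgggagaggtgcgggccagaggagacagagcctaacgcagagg
Sdc3: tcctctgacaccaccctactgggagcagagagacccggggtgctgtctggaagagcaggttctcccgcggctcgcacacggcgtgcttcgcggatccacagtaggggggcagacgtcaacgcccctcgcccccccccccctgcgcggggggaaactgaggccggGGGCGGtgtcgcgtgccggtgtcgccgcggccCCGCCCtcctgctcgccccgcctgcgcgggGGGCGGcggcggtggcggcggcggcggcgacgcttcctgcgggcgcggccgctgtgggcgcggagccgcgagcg
Gpc3: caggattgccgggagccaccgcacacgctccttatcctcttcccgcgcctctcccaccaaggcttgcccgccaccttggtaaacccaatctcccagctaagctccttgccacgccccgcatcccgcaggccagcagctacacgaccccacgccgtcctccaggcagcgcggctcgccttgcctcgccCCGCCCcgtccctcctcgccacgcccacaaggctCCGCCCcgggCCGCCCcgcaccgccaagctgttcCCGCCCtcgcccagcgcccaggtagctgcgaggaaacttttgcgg
The GC box was searched on both strands and was present in 6 of 6 promoters of the family, against 35.7% of the 32851 promoters in the table. All 6 were rich in G and C, with 70.7% in Gpc3, 66.3% in Sdc1, and 77.7% in Sdc3 against a median of 52.7% over all promoters. The CpG content, as observed over expected, was 0.919 for Gpc3, 0.974 for Sdc3, and 0.486 for Sdc1, against a median of 0.384. The NFAT core (GGAAA), searched because the study concerns NFATc1, was in 4 of 6 promoters of the family and in 61.3% of all promoters. It was in the promoters of Gpc3, which was lower, and Sdc3, which was higher, and these letters were not in that of Sdc1. The AP-1 site (TGANTCA) was in 0 of 6 promoters and in 7.81% of all. The TEAD site (GGAATG) was in 1 of 6, that of Gpc4, and in 14.7% of all, and the TATA box (TATAAA) was in 0 of 6 and in 13.6% of all. In these 6 promoters no match of one motif overlapped a match of another, and a match describes the sequence alone.

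The counts summed to between 49921946 and 68260600 reads per library. Fibroblast markers were present in every library, with sums of 27092 to 32839 CPM for aged sham against 56001 to 73276 CPM for aged bleo, with Col1a1, Col1a2, Col3a1, and Pdgfrb higher and Dcn, Tcf21, and Pi16 lower. Of the genes that the sort selected against, Epcam was at mean levels of 0.593 and 0.668 CPM (aged sham, aged bleo), and Pecam1 at 6.12 and 4.34 CPM. Ptprc, which encodes CD45, had means of 87.0 and 65.0 CPM and was not called (FDR 0.643). Of 5 pan-leukocyte markers, Ptprc among them, 1 was called higher and 4 were not called, with a median log2 fold change of 0.39. The called gene was Laptm5, at means of 29.8 and 63.8 CPM (log2 fold change 1.10, FDR 0.0931). Macrophage markers were called higher for 4 of 8 genes, with summed levels of 139 to 276 CPM for aged sham against 453 to 1432 CPM for aged bleo, highest in aged bleo 4. Aged bleo 4 and aged sham 4 had the highest pan-leukocyte sums of their groups, at 509 and 327 CPM. In bulk libraries, fewer cells of a type and less RNA per cell cannot be told apart.

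Gpc1 (ENSMUSG00000034220, chromosome 1, 92831645 to 92860779, GRCm38), which encodes glypican 1, a co-receptor for growth factors such as FGF2, had the largest change of the 9. It was at 19.1, 20.6, 17.0, and 14.2 CPM in aged sham 1 to 4. In aged bleo 1 to 5 it was at 226, 139, 209, 327, and 245 CPM. The lowest aged bleo library, aged bleo 2, was thus far above the highest aged sham library. The means were 17.8 ± 2.77 CPM (SD, n = 4) and 229 ± 67.8 CPM (SD, n = 5), and the log2 fold change was 3.69 (standard error 0.25, FDR 2.38e-05), a 12.9-fold rise that ranked 142 from the top among all genes tested. The counts behind these values were 706 to 1205 reads in aged sham and 7829 to 23965 in aged bleo. Gpc1 overlaps exons of Ankmy1 on the other strand over 977 bases, or 18.9% of its exon sequence, and Ankmy1 had at most 13 counts in any library.

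Gpc3 (ENSMUSG00000055653, chromosome X, 52272426 to 52613950) encodes glypican 3, which binds hedgehog ligands and whose loss causes overgrowth in mice and in humans. It was the most abundant of the 9 genes per length in both groups. Its levels were 1369, 1578, 1439.8, and 1622 CPM in aged sham 1 to 4. They were 613, 892, 667, 248, and 276 CPM in aged bleo 1 to 5. Every aged bleo library was below every aged sham library, with aged bleo 4 and 5 the lowest and aged bleo 2 the nearest to aged sham. The means were 1502 ± 118 CPM (SD, n = 4) and 539 ± 274 CPM (SD, n = 5), which is 2.79-fold lower. The log2 fold change was -1.48 (standard error 0.36, FDR 0.0127).

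Gpc6 (ENSMUSG00000058571, chromosome 14, 116925297 to 117979529) encodes glypican 6, known for a role in hedgehog signalling during bone growth, and fell by nearly the same amount as Gpc3. It was at 364, 350.4, 343, and 352 CPM in aged sham 1 to 4, the tightest group of all, with an SD of 2.43% of the mean. It was at 147, 215, 132, 39.4, and 68.8 CPM in aged bleo 1 to 5. The aged bleo libraries thus spread over 5.46-fold, wider than for any of the other 8 genes, and 5.17% of all genes tested spread more widely within aged bleo. The log2 fold change was -1.55 (standard error 0.41, FDR 0.0174), from 352 ± 8.56 CPM (SD, n = 4) to 120.4 ± 68.9 CPM (SD, n = 5). Gpc5, a further glypican gene on chromosome 14 that is not among the 9, had 0 to 4 counts per library.

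Gpc4 and Gpc3 are neighbours on chromosome X, 107 kb apart with no other gene of the table between them, and they did not move together. Gpc4 (ENSMUSG00000031119, chromosome X, 52053021 to 52165252), which encodes a glypican that can bind Wnt proteins, was at 46.9, 39.8, 43.4, and 43.0 CPM in aged sham 1 to 4. It was at 68.2, 50.2, 60.8, 64.1, and 73.5 CPM in aged bleo 1 to 5, above aged sham in each library. Its log2 fold change was 0.55 (standard error 0.11, FDR 0.00537), a 1.46-fold difference that passed the FDR and stayed just under the fold change threshold. Without aged sham 1 it was 0.59, and without aged bleo 2 it was 0.62, and Gpc4 was then called higher, in fits that called 23.1% and 27.2% of all genes tested. The interval of its log2 fold change, 0.31 to 0.79, and that of Gpc3, -2.28 to -0.68, lie on opposite sides of 0.

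Gpc2 (ENSMUSG00000029510, chromosome 5, 138264952 to 138280005), a glypican best known from developing neurons, was the scarcest of the 9 genes per length. It lay between 12.8 and 16.3 CPM in aged sham, against 15.7 to 19.9 CPM in aged bleo, and the groups overlapped. The log2 fold change was 0.22 (95% interval from just below 0 to 0.44, FDR 0.112), which does not show that the groups were alike. Its position in the table overlaps that of Gal3st4, and its counted length of 8309 bases is longer than the 4274 bases of its exons in GENCODE M21, where Gm43720 shares 55.6% of them, so its values are uncertain.

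Among the syndecans, Sdc1 (ENSMUSG00000020592, chromosome 12, 8771323 to 8793715) changed most. It encodes syndecan 1, known from epithelia and plasma cells and readily shed from the surface. It was at 17.3, 15.2, 17.2, and 18.5 CPM in aged sham 1 to 4. It was at 181, 96.1, 147, 278, and 208 CPM in aged bleo 1 to 5. The means were 17.1 ± 1.35 CPM (SD, n = 4) and 182 ± 67.9 CPM (SD, n = 5), with no overlap of the groups and a log2 fold change of 3.41 (standard error 0.29, FDR 7.54e-05), a 10.7-fold rise. Markers of epithelial and plasma cells, which also make syndecan 1, are given beside it. Epithelial markers summed to 17.3 to 118 CPM for aged sham against 22.3 to 68.7 CPM for aged bleo, with 1 of 11 genes called higher (Krt8) and 1 lower (Ager). Of 7 plasma and B cell markers tested, 5 were called lower and 0 higher (edgeR), 6 had an unadjusted p under 0.05, and both DESeq2 and limma-trend called 5. Within aged bleo, Sdc1 was highest in aged bleo 4, the library with the highest macrophage sum, and lowest in aged bleo 2, where the macrophage sum of 677 CPM was above those of aged bleo 1 and 3. With aged bleo 4 and aged sham 4 left out, the log2 fold changes of Sdc1 and Gpc1 were 3.23 and 3.42, in a fit that called 21.5% of all genes tested.

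Sdc3 (ENSMUSG00000025743, chromosome 4, 130792537 to 130826319), which encodes a syndecan best known from the nervous system, was higher as well. It was at 57.7, 54.9, 47.1, and 36.8 CPM in aged sham 1 to 4 and at 148, 115, 142, 164, and 168 CPM in aged bleo 1 to 5. The aged bleo libraries lay close together, all above aged sham, with a mean of 147 ± 21.04 CPM (SD, n = 5) against 49.1 ± 9.37 CPM (SD, n = 4). The log2 fold change was 1.58 (standard error 0.16, FDR 1.78e-04), a 3.00-fold rise. An antisense gene, Gm26716, lies across 415 bases of its exons (6.93%) and had up to 1007 counts in a library. The kit was unstranded, so reads on that stretch cannot be assigned to either gene by strand. The macrophage sum rose with bleomycin, as Sdc3 and Sdc1 did, with 4 of 8 markers called. Within aged bleo the orders matched only in part. Sdc3 was highest in aged bleo 5 and 4, which had the highest macrophage sums (816 and 1432 CPM). It was lowest in aged bleo 2, whose macrophage sum of 677 CPM exceeded those of aged bleo 1 and 3. The part of macrophages in the rise of Sdc3 or Sdc1 was not tested.

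Sdc2 and Sdc4, the most abundant syndecan genes per length, changed least among the syndecans. Sdc2 (ENSMUSG00000022261, chromosome 15, 32920723 to 33034730), a syndecan typical of mesenchymal cells, was at 405, 404, 388, and 481 CPM in aged sham 1 to 4. It was at 323, 374, 339, 279, and 299 CPM in aged bleo 1 to 5, below aged sham in each library. Its log2 fold change of -0.38 (standard error 0.11, FDR 0.0237) passed the FDR but not the fold change threshold. Its neighbours went different ways, with Sema5a higher (0.74, FDR 0.0165) and Cpq lower (-0.87, FDR 0.0116). Sdc4 (ENSMUSG00000017009, chromosome 2, 164424247 to 164443887), which encodes the syndecan of focal adhesions, lay between 208 and 343 CPM in aged sham, against 163 to 289 CPM in aged bleo. The groups overlapped, and the 95% interval of its log2 fold change of -0.21 ran from -0.65 to 0.23 (FDR 0.433). The direction was negative in all 21 alternatives, from -0.31 to -0.06. These alternatives reuse the same libraries, so the shared sign is no added evidence of a fall.

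**Figure D2:**
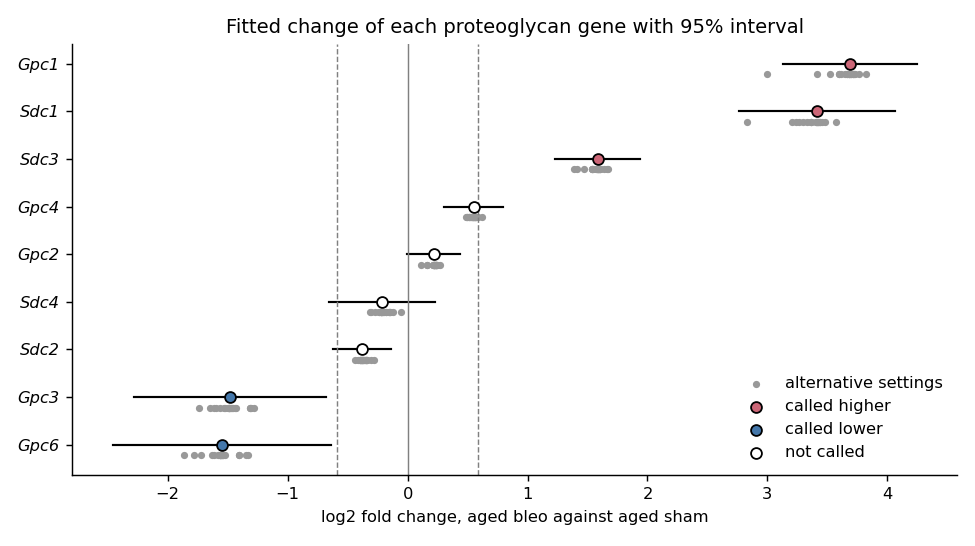
Log2 fold change of each gene in aged bleo against aged sham, with 95% intervals from the edgeR fit as lines, and small grey points for 21 alternative settings. Dashed lines mark a fold change of 1.5 in each direction. Gpc1 and Sdc1 lie above the other genes even at the lower ends of their intervals, 3.13 and 2.77, and Gpc4 sits at the dashed line.

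Levels of different genes were compared on the FPKM scale, which accounts for gene length. In aged sham the order was Gpc3 (234 FPKM), Sdc2 (52.9), Sdc4 (43.3), Gpc6 (15.7), Gpc4 (6.84), Sdc3 (3.45), Sdc1 (1.88), Gpc1 (1.45), and Gpc2 (0.740). Sdc2 and Sdc4 were the neighbours in this order whose libraries overlapped. The lowest Sdc1 library (1.7013 FPKM) and the highest Gpc1 library (1.7008 FPKM) nearly met. In aged bleo the order of mean FPKM was Gpc3 (85.4), Sdc2 (41.7), Sdc4 (38.2), Sdc1 (20.7), Gpc1 (19.2), Sdc3 (10.6), Gpc4 (10.3), Gpc6 (5.43), and Gpc2 (0.883). The levels had drawn together, and in aged bleo each pair of neighbours overlapped between libraries except Gpc6 and Gpc2. Sdc1 and Gpc1 thus moved from ranks 7 and 8 to ranks 4 and 5, and Gpc6 from rank 4 to rank 8.

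The sum over the 9 genes was 360.3 ± 16.9 FPKM (SD, n = 4) in aged sham and 232 ± 39.5 FPKM (SD, n = 5) in aged bleo. The glypican sum went from 259 ± 16.9 to 121 ± 38.0 FPKM, while the syndecan sum was 101 ± 10.0 and 111 ± 3.59 FPKM. As a share of the 9 genes, glypicans made up 67.8%, 73.5%, 73.8%, and 72.2% in aged sham 1 to 4 and 54.7%, 60.7%, 54.1%, 42.8%, and 43.3% in aged bleo 1 to 5. The decrease of Gpc3 came to 116% of the decrease in the sum of the 9. Its own share was 64.9 ± 3.00% in aged sham and 35.1 ± 12.2% in aged bleo, and without Gpc3 the glypican share was 19.7% in aged sham and 24.3% in aged bleo. Gpc1 and Sdc1 made up 0.402% and 0.522% of the sum in aged sham and 8.79% and 9.56% in aged bleo. These shares are descriptions of a chosen list and were not tested.

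**Figure D3:**
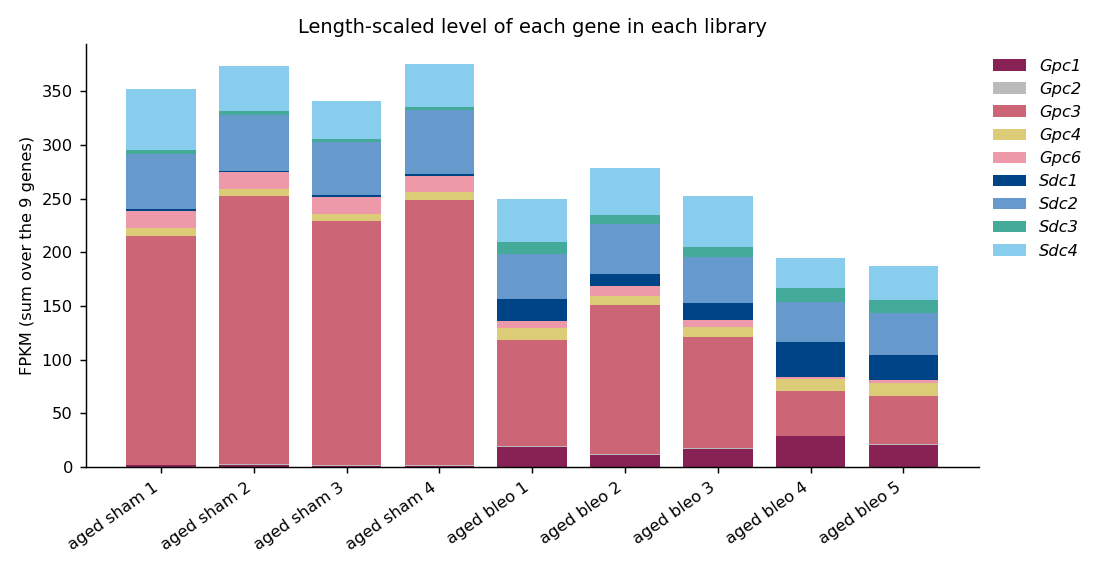
Stacked FPKM of the 9 genes in each library, 4 aged sham and 5 aged bleo, with the axis starting at 0. The Gpc3 segment is the tallest in each library and shrinks in aged bleo, where the sum lies between 187 and 278 FPKM against 341 to 375 FPKM in aged sham, while the Gpc1 and Sdc1 segments become visible.

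The order of the aged bleo libraries was shared by some of the genes. Gpc1 and Sdc1 had the same order, from aged bleo 4 as the highest through 5, 1, and 3 to 2 as the lowest. Gpc3 and Sdc2 had exactly the reverse order, from aged bleo 2 down through 3, 1, and 5 to 4, and Gpc6 differed from them in the places of aged bleo 1 and 3 alone. The other 4 genes had orders of their own, from the highest library to the lowest 5, 4, 1, 3, 2 for Sdc3, 5, 1, 4, 3, 2 for Gpc4, 3, 2, 1, 5, 4 for Sdc4, and 1, 3, 2, 5, 4 for Gpc2. Aged bleo 2 also scored nearest to aged sham on the first principal component of all genes tested (5.18, with aged sham between -69.1 and -50.1), and aged bleo 4 farthest (88.7). Between them, aged bleo 5, 3, and 1 scored 72.4, 41.7, and 35.8. This order over all genes thus differed from that of Gpc1 and Sdc1 in the places of aged bleo 1 and 3 alone. How many other genes share these orders is not reported here. The levels of Gpc1, Sdc1, Gpc3, and Gpc6 in aged bleo 4 were the farthest from aged sham among the aged bleo libraries. Aged bleo 4 is besides the one aged bleo library whose name ends in 4, as those of all aged sham libraries do. The names of the other aged bleo libraries end in 5 or 6, so this number and the treatment are nearly confounded. What that number stands for is not stated. Its part in the differences was not tested, and 1 library cannot tell it apart from bleomycin.

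The gene whose profile over the 9 libraries was closest to that of Gpc3 was Dpt, which encodes the matrix protein dermatopontin, a marker of fibroblasts of the outer vessel wall and other connective tissue. Likeness was measured as the root mean square difference of log2 CPM profiles centred on their means, and it was 0.0777 for Dpt and 0.0971 for Il17d. Dpt went from 2620.2 to 957 CPM. The nearest profiles to Gpc6 were those of Pdgfd, encoding a PDGF ligand (0.0965), and the matrix gene Ecm2 (0.114). For Sdc3 they were Mdga1 (0.117) and Nrp2, encoding a semaphorin and VEGF co-receptor (0.117), which rose from 111 to 349 CPM. The profiles nearest to Gpc1 were less close and belonged to genes of low level, A530084C06Rik (0.175) and Syt6 (0.212), as did those nearest to Sdc1, Myadml2os (0.172) and Slitrk6 (0.244).

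The called genes differ in length. Gpc6 spans 1054 kb and Gpc3 342 kb of the genome, and 28 and 307 of the genes tested are longer. Gpc1, Sdc1, and Sdc3 span 29.1, 22.4, and 33.8 kb, which is shorter than Gpc3 and Gpc6 and longer than the median gene tested. Over all genes tested, the median span was 18.8 kb, with 19.9 kb among the genes called higher and 20.95 kb among those called lower, so the medians of the genes called in each direction lay close together.

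Genes that build, edit, release, or bind heparan sulfate proteoglycans were examined as 10 lists of 77 genes. Of these, 70 were tested, 11 were called higher, 5 lower, and 54 were not called. The 22.9% called was near the 23.8% of all genes tested. At an FDR below 0.05 and a fold change above 2, 5 were higher and 3 lower, with 7.25% and 5.53% of all genes tested past these thresholds. By limma-trend on log2(FPKM + 1), 9 were higher and 3 lower, with 5.69% and 4.89% of all genes tested called in these directions. The median log2 fold change over these genes was 0.13. Other proteoglycans that can carry the chain moved both ways. Cd44, a hyaluronan receptor with heparan sulfate on some isoforms, was higher (log2 fold change 1.11, standard error 0.19, FDR 0.00319), as was Col18a1 of the basement membrane (0.69). Tgfbr3, which encodes the TGF-β co-receptor betaglycan, was lower, from 396 ± 35.4 CPM (SD, n = 4) to 195 ± 77.5 CPM (SD, n = 5) (log2 fold change -1.02, FDR 0.0193).

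In chain assembly, the polymerase Ext1 rose, from 112 ± 8.56 CPM (SD, n = 4) to 195 ± 22.4 CPM (SD, n = 5) (log2 fold change 0.80, standard error 0.10, FDR 6.34e-04), while its partner Ext2 had a log2 fold change of 0.05 (FDR 0.624). None of the 7 linkage region enzymes was called (edgeR, DESeq2, and limma-trend), with log2 fold changes between -0.08 and 0.48. Of these, 4 had an unadjusted p under 0.05 and an FDR under 0.10 (edgeR), and stayed under the fold change threshold. Over all genes tested, 44.8% had an FDR under 0.10. Of the 4 genes tested for N-sulfation and epimerization, 0 were called (edgeR), and DESeq2 and limma-trend each called 1. By edgeR, 1 of the 4 had an unadjusted p under 0.05 and an FDR under 0.10. Of the 5 genes of sulfate donor supply, 0 were called (edgeR, DESeq2, and limma-trend), and 1 had an unadjusted p under 0.05 and an FDR under 0.10 (edgeR).

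Of 7 O-sulfation genes tested, 3 were higher and 1 lower. Hs6st1, a 6-O-sulfotransferase, rose from 39.8 ± 4.63 to 70.2 ± 3.70 CPM (log2 fold change 0.82, FDR 2.29e-04), and the 2-O-sulfotransferase gene Hs2st1 from 45.2 ± 4.33 to 69.7 ± 6.46 CPM (log2 fold change 0.63, FDR 0.00138). Hs2st1 was under the fold change threshold without aged bleo 5 (0.58) and on log2(FPKM + 1) (0.55). Hs6st2 was higher at a level near 1 CPM (log2 fold change 1.23, FDR 0.0328), and the call was lost on both log2 FPKM scales (0.38 and 0.06) and with aged sham 4 and aged bleo 4 left out (FDR 0.106). Hs3st1, which makes the 3-O-sulfated sites that bind antithrombin, fell from 24.0 ± 3.93 to 5.68 ± 3.62 CPM (log2 fold change -2.08, standard error 0.50, FDR 0.0128), with no overlap of the groups.

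Among the editing and breakdown genes, Sulf2 was lower and Sulf1 was not called, although both encode extracellular sulfatases that remove 6-O-sulfate. Sulf2 went from 330.4 ± 11.8 CPM (SD, n = 4) to 153 ± 52.5 CPM (SD, n = 5) (log2 fold change -1.11, standard error 0.24, FDR 0.00766). Sulf1 had a log2 fold change of 0.44 (standard error 0.13, FDR 0.0311), under the fold change threshold. The lysosomal enzyme gene Idua was lower (-0.66, FDR 0.0319), and it fell under the fold change threshold without aged bleo 4 (-0.54) or 5 (-0.57) and on log2(FPKM + 1) (-0.47). The heparanase gene Hpse had a log2 fold change of -0.51 (FDR 0.0132) and was not called.

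Of 11 genes tested for shedding and release, 4 were higher and 1 lower. The higher genes were Mmp14 (log2 fold change 1.31, FDR 2.13e-04) and Adam10 (0.74, FDR 0.00230), which encode proteases that can cut syndecans, and Furin (1.13, FDR 7.30e-04), which encodes a convertase that cleaves glypican precursors. Adam17 had a log2 fold change of 0.12 (FDR 0.314). Notum, which encodes a secreted esterase that inactivates Wnt proteins and can bind glypicans, rose from 1.91 ± 0.627 CPM (SD, n = 4) to 23.6 ± 9.81 CPM (SD, n = 5) (log2 fold change 3.63, standard error 0.38, FDR 2.34e-04). Gdpd5, which encodes a phosphodiesterase that can cut GPI anchors, was lower (-0.70, FDR 0.00840), though not called on log2(FPKM + 1), at -0.47. Of the 9 genes for partners of the syndecan cytoplasmic tail, Actn1, which encodes an α-actinin, was called higher (0.68, FDR 0.00866; 0.55 and not called without aged sham 4). The syntenin gene Sdcbp had a log2 fold change of -0.25 (FDR 0.0403). Of the 5 genes for attaching GPI anchors, 0 were called (edgeR, DESeq2, and limma-trend), with log2 fold changes from 0.08 to 0.44. By edgeR, 4 of the 5 had an unadjusted p under 0.05 and an FDR under 0.10, as had 44.8% of all genes tested for the FDR. They stayed under the fold change threshold.

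**Figure D4:**
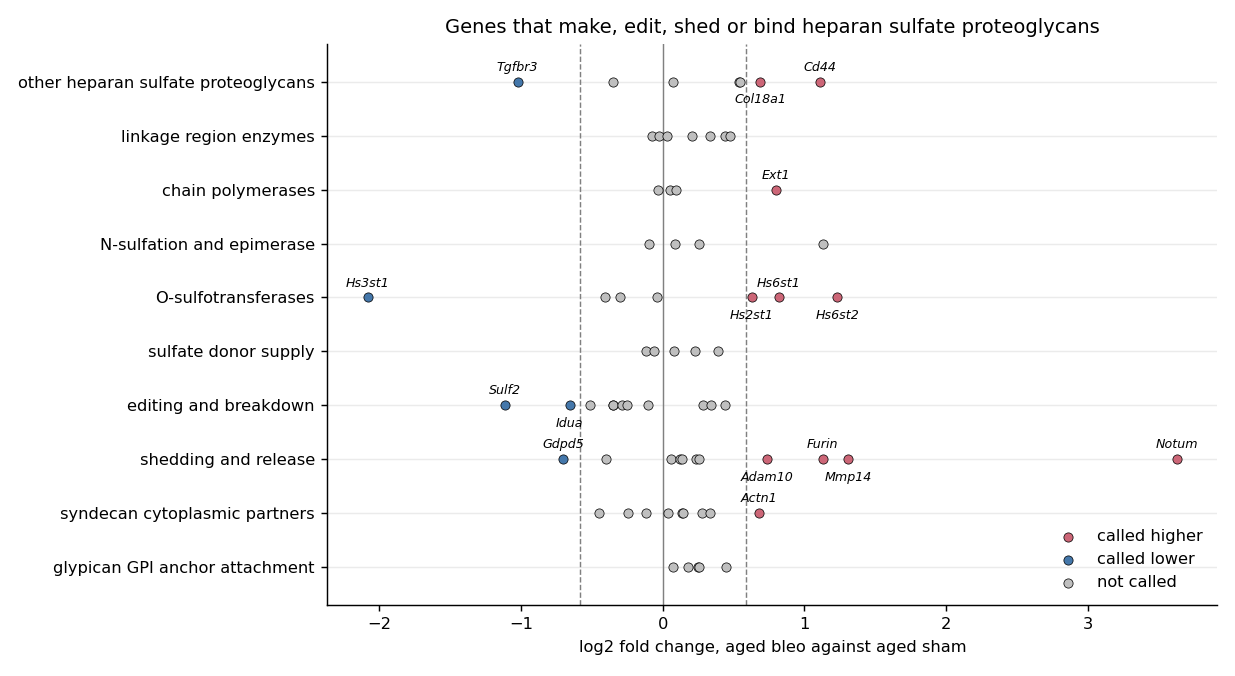
Log2 fold change (horizontal axis, aged bleo against aged sham) of the 70 genes tested in the 10 lists (rows), with called genes named and coloured, red for higher and blue for lower, and dashed lines at a fold change of 1.5. Most points, 54 of 70, are grey and not called, and Notum at 3.63 and Hs3st1 at -2.08 are the extremes.

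Several other cell types of the lung were followed by their markers beside the glypicans that fell. Endothelial markers summed to 164 to 203 CPM for aged sham against 27.4 to 72.1 CPM for aged bleo, and Tek alone made up 89.2% of that sum in aged sham, with Kdr called higher and Pecam1 and Cdh5 not called. Pericyte and smooth muscle markers summed to 3197 to 5721 CPM and 1908 to 3424 CPM, with 3 of 8 lower (Kcnj8, Abcc9, and Myh11) and 1 higher (Notch3). None of 6 mesothelial markers was called (edgeR), 0 had an unadjusted p under 0.05, and DESeq2 called 1 and limma-trend 0. For neutrophil markers, 0 of 6 were called and 0 had an unadjusted p under 0.05, with 0 called by DESeq2 and limma-trend, and their sum was highest in aged sham 4 (937 CPM) and aged bleo 4 (841 CPM). Without these libraries, the log2 fold change of Gpc3 was -1.28 and that of Gpc6 -1.35, and both were still called lower. The part of other cell types in these differences was not tested.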

How the data were processed

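RNA-Seq libraries of sorted lung fibroblasts were prepared from polyadenylated RNA with an unstranded kit. The submitters' processing notes name bcl2fastq, STAR 2.5.2b, Subread, featureCounts, and the builds mm10 and GRCm38, and the strand setting is not given in the sources used here. The authors deposited 1 table with whole-number read counts per gene, without normalization, and FPKM values, which are relative to gene length and imply library totals of 2.27 to 2.42 times the summed counts. Of 42462 gene identifiers shared with GENCODE M21 (GRCm38), 78.8% had the same position.

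Tests covered genes whose mean count across the 9 libraries reached 25, with edgeR 4.0.16 (TMM, glmQLFit, glmQLFTest, no covariate) in R 4.3.3. FDR values are Benjamini-Hochberg adjusted over all 16877 genes tested. TMM factors entered all CPM values, with a prior count of 2 on the log2 scale. Each standard error follows from a fold change and its F statistic. DESeq2 1.42.0, limma 3.58.1 (limma-trend), and other filters and scalings were alternatives. On simulated counts for the 16877 genes, edgeR recovered 65.7% of 2-fold and 89.1% of 4-fold changes, with 12 false calls among 165. In that simulation 200 genes were changed, and each gene had the same dispersion in both groups. The rates need not hold for the real counts, where 4022 genes were called. No libraries of 1 group were duplicates (chi-square per degree of freedom of at least 30.9). The genes and lists were chosen with earlier results of these data known. Named genes are the 9 genes, called genes and extremes of the lists, the 2 nearest profiles, and table neighbours. Ext2, Hpse, Adam17, and Sdcbp were named in addition after their values were seen. The labels do not say more of the replicates than that they are separate samples, and the study's statistics describe independent mice.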

Additional observations from a re-analysis of the deposited data

How the results depend on the processing

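Over 21 alternatives for each of the 9 genes, 187 of 189 log2 fold changes kept their direction and their call by both thresholds together. The other 2 were those of Gpc4 without aged sham 1 or aged bleo 2 given in the report. The FDR alone was less stable for Sdc2 and Gpc2, which were not called. For Sdc2 it went from 0.0237 to 0.130 with replicate numbers as a block. For Gpc2 it went from 0.112 to 0.0904 with library size only and to 0.0956 on log2(FPKM + 1). It was 0.0900 for Gpc2 without aged sham 2 and 0.0932 without aged bleo 4. The count of genes called higher among the 9 stayed between 3 and 4 and that called lower at 2. Over all genes tested, 4022 were called, 1785 by limma-trend on log2(FPKM + 1), and 2158 at the stricter FDR of 0.05 with a fold change above 2. Under these thresholds, 5 genes of the heparan sulfate lists were higher and 3 lower, and on log2(FPKM + 1) 9 were higher and 3 lower. The pseudocount compresses low levels, and the stricter thresholds ask for more. The glypican share was 19.7% in aged sham and 24.3% in aged bleo without Gpc3, so its direction between the groups rests on that gene. With replicate numbers 1 to 4 as a block, 3541 genes were called, against 3525 in the same libraries without the block, a fit added after the data were seen, as was leaving out aged sham 4 and aged bleo 4 together (3596 genes). Same-numbered libraries had correlations of deviations from -0.13 to 0.33, and 1 of 4 aged sham libraries correlated best with its own number, so the numbers were not taken as pairs. The 95% interval of the log2 fold change of Gpc2 reached 0.44, so a difference of that size is not excluded.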
